A study of Mus musculus with 12 samples.

Results

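The genes described here are the hypoxia-inducible factor subunit *Hif1a* and 9 genes known to be induced by hypoxia, which are *Vegfa*, *Car9*, *Ndrg1*, *Egln3*, *Bnip3*, *Ankrd37*, *Adm*, *Ddit4* and *P4ha1*. They were taken by name, and all 10 were present among the 15687 genes of the table. They were measured by RNA sequencing in 12 subcutaneous allograft tumors grown from mTc11, a mouse lung cancer cell line. The cells were injected into male C57BL6/J mice aged 8 weeks, and the tumors were collected on day 24. The paper names growth factor-reduced Matrigel for its xenografts and does not name it again for these allografts. In 6 tumors (CTL) the cells carried a scrambled shRNA, and in 6 tumors (*Filip1l* KD) they carried an shRNA against *Filip1l*. Both arms were puromycin-selected mixed clones of lentivirally transduced cells, and the host keeps its own stroma, vessels and immune cells. The shRNA was introduced into the injected cells and not the host, and which of the study's *Filip1l* shRNAs the sequenced tumors carried is not given in the sources used here. The comparison asks how the hypoxia-induced genes stood in tumors grown from *Filip1l*-knockdown cells.

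Cells sense oxygen through prolyl hydroxylases, which mark the HIF alpha subunits for degradation by the von Hippel-Lindau complex while oxygen is present. When oxygen falls, the alpha subunits persist, pair with ARNT and bind short DNA motifs near genes for angiogenesis, glycolysis, pH control, mitophagy and matrix modification. HIF-1α is controlled mainly through protein stability, so the mRNA of *Hif1a* does not report its activity. In solid tumors these target genes are commonly high in poorly perfused areas. The paper reports that the knockdown allografts outgrew the controls and held considerable necrosis at their centers. Size and necrosis of each sequenced tumor are not given in the sources used here, and their part in the levels below was not tested.

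The HIF motif is written as ACGTG or GCGTG, and the stretches below show where the members' promoters hold it. RefSeq promoters on GRCm38.p6, from 250 bases before to 50 bases after each annotated start, were found for 9 of the 10 members, *Vegfa* having 2 of them, which makes 10 promoters in all. On either strand, ACGTG was present for 8 of the 9 members, GCGTG for 6, and one or the other for all 9. *Vegfa* counts only through its promoter at 46025114 to 46025413, which lies inside the GENCODE span of the gene, 46016993 to 46032369. Its promoter at the start of that span on the - strand, 46032328 to 46032627, held 0 matches. The searched promoters of *Hif1a* and *Ankrd37* also lie inside the GENCODE spans of their genes. Over all 32851 promoters of 300 bases, 19.6% held ACGTG, 32.4% held GCGTG and 43.8% held at least one. These shares are per promoter, whereas the counts of members take any promoter of the member. A palindromic CACGTG counts once on each strand. One window of 29 bases is shown for each member in the direction of its transcript, with the motif or its reverse complement in capitals at the site chosen for display. The windows of *Vegfa* and *Bnip3* also hold further matches to GCGTG or its reverse complement, which are left in lower case.
*Hif1a*, chr12:73907785-73907813, + strand: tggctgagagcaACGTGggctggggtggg
*Vegfa*, chr17:46025358-46025386, - strand: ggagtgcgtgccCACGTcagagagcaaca
*Adm*, chr7:110627591-110627619, + strand: ggcaaatctgacCACGCccaccgtccgcc
*Car9*, chr4:43506996-43507024, + strand: ctatttccgatgCACGTacagcccgtcca
*Egln3*, chr12:54204087-54204115, - strand: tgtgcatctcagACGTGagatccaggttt
*Bnip3*, chr7:138909597-138909625, - strand: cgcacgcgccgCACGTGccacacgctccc
*Ankrd37*, chr8:45999840-45999868, - strand: cagtgtttgggtACGTGaggccgcagcgg
*Ddit4*, chr10:59951941-59951969, - strand: agaacgttgcgaACGTGcgcccggtgcct
*P4ha1*, chr10:59323268-59323296, + strand: tgtgacagagcgCACGTagcgagggctgc
A motif match is a description of these letters and not a binding site. The motif begins 18 bases before the RefSeq start of *Car9* and 229 bases before that of *Egln3*. *Ndrg1* was the member without a promoter in the table. *Hif1a* and *P4ha1*, whose mRNA did not pass the test below, hold the motif, as do the other 7 members searched, *Vegfa* only in the promoter inside its gene.

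Depth lay between 17834745 and 29502069 reads on listed genes across the CTL group, lowest in replicate 5, and between 25460564 and 32419578 across the knockdown group. *Filip1l* itself measured 2311 ± 211 normalized counts (SD, n = 6) in the CTL group, ranging from 1983 to 2542. The knockdown group measured 1924 ± 165 (SD, n = 6), ranging from 1670.1 to 2184. The groups thus overlapped at a log2 difference of -0.26 (limma adjusted p = 0.00998). *Filip1l* lies inside *Cmss1* on the opposite strand, and the counting strand is not given. Reads in any exon sequence shared by the pair could not be told apart, and the extent of such sharing was not computed. Markers of simple epithelium such as *Krt8* were abundant in every tumor, whereas lung markers were mixed, with *Napsa* at 183 to 293 normalized counts across the CTL group and 262 to 624 across the knockdown group and *Sftpc*, which defines alveolar type II cells, spanning 0 to 53.0 normalized counts across the CTL group and 0 to 60.5 across the knockdown group. *Filip1l*-knockdown replicate 1 stood apart from the other 5 knockdown tumors for most members, and results that rest on it are also given without it.

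Of the 10 members, 8 were higher in *Filip1l*-knockdown tumors at a limma adjusted p under 0.05, a share to be read against 21.1% of all genes (41.9% in either direction). No member passed the test in the lower direction (20.7% of all genes), and all 10 fold changes were positive, also with edgeR and DESeq2. *Ndrg1*, *Adm*, *Car9* and *Egln3* also passed a log2 fold change of 1, which 6.20% of all genes did in that direction, 3.97% in the other and 10.2% in either. The 2 groups did not overlap for 3 members, *Vegfa*, *Ndrg1* and *Egln3*, against 10.6% of all genes in that direction (10.9% in the other). The median log2 fold change was 0.80 over the members and 0.01 over all genes. Rescaling to the ribosomal protein gene *Rpl7* moved the median of all genes to 0.19 and raised the share of higher among called genes from 50.5% to 79.9%. The same 8 members were called on that scale, where 4835 of 15687 genes were called higher.

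**Figure D1:**
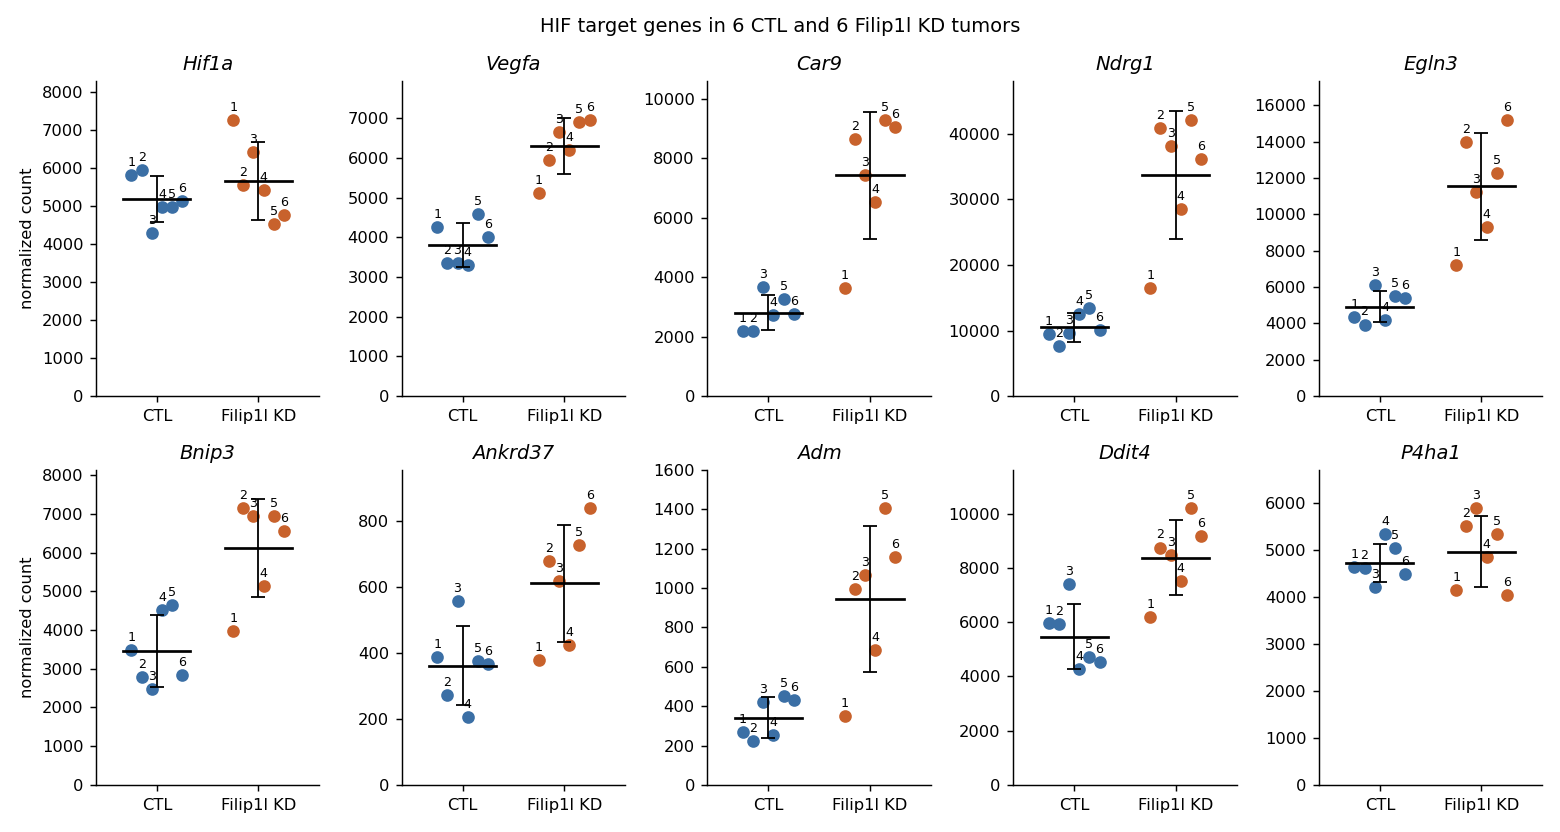
Normalized counts (y axis, linear from 0) of the 10 members in each CTL and Filip1l KD tumor; points are tumors with their replicate number, lines and bars the mean ± SD (n = 6). Knockdown replicate 1 is the lowest knockdown tumor for 8 members and the highest for *Hif1a*.

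*Hif1a* (ENSMUSG00000021109, chromosome 12, 73901375 to 73947530, + strand), the oxygen-regulated alpha subunit, spanned 4289.9 to 5946 normalized counts across the CTL group, with a median of 5050.4. Across the knockdown group it spanned 4525 to 7264, with a median of 5479. The ranges overlapped broadly, and the highest value of all 12 tumors was that of knockdown replicate 1. A log2 fold change of 0.11 (standard error, SE, 0.11, 95% interval -0.13 to 0.36) did not pass the test (limma adjusted p = 0.452, exact two-sided permutation p = 0.387). The antisense gene *Gm15283* and *Gm49321* share exon sequence with *Hif1a*.

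*Egln3* (ENSMUSG00000035105, chromosome 12, 54178981 to 54203860, - strand) encodes PHD3, one of the prolyl hydroxylases and itself a HIF target. It spanned 3944 to 6093 normalized counts across the CTL group (median 4892) and 7219 to 15208 across the knockdown group (median 11763). Every knockdown tumor exceeded every CTL tumor, and the lowest of them was replicate 1. *Egln3* rose by 1.20 on the log2 scale (SE 0.17, limma adjusted p = 5.51e-05, exact permutation p = 0.00216, the smallest that 924 arrangements of the labels can give), and it was 1.33 without knockdown replicate 1.

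Of 15 other regulators of the HIF pathway, 2 rose and 3 fell, with a median log2 fold change near 0 (-0.0019). These are shares of 13.3% and 20%, near the 21.1% and 20.7% of all genes. *Hif3a*, an alpha subunit that can act as an inhibitor of the others, had the largest rise, with group means of 16.8 ± 14.6 normalized counts for CTL and 80.5 ± 32.0 for *Filip1l* KD (SD, n = 6). The log2 fold change of *Hif3a* was 2.42 (SE 0.44, limma adjusted p = 0.000574), and the groups overlapped at low counts, between 6.63 and 44.1 for CTL and between 33.3 and 127 for *Filip1l* KD, where replicate 1 was lowest. *Arnt2*, a partner of the alpha subunits used mainly in neural tissue, fell from 189 ± 56.0 to 55.2 ± 7.97 normalized counts without overlap (log2 fold change -1.71, SE 0.19, limma adjusted p = 9.95e-06). The smaller changes were a rise of *Cited2*, a HIF-induced competitor for the coactivator p300 (0.43), and falls of the p300 gene *Ep300* (-0.20) and of *Hif1an*, the asparaginyl hydroxylase that blocks coactivator binding (-0.27). *Hif1an* was at 0.09 after chromosome medians were removed. On the *Rpl7* scale 6 of the 15 regulators rose and 1 fell, to be read against 4835 higher and 1216 lower of all 15687 genes on that scale. By contrast, the partner *Arnt* (0.09), the von Hippel-Lindau gene *Vhl* (0.09), the alpha subunit *Epas1* (0.27) and the prolyl hydroxylases *Egln1* (0.20) and *Egln2* (-0.03) did not pass the test, values in parentheses being log2 fold changes. *Egln1* did pass without knockdown replicate 1 (0.29, limma adjusted p = 0.0123), and its difference was 0.40 after chromosome medians were removed. These 5 and the 3 smaller changes were named after their values were seen.

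*Vegfa* (ENSMUSG00000023951, chromosome 17, 46016993 to 46032369, - strand), the main growth factor for blood vessel endothelium, spanned 3293 to 4577 normalized counts across the CTL group (median 3683). Across the knockdown group it spanned 5119.95 to 6961 (median 6425). The groups did not overlap, knockdown replicate 1 was the lowest knockdown tumor, and this was the member with the smallest spread among knockdown tumors, with a coefficient of variation of 11.1%. Its rise was 0.73 on the log2 scale (SE 0.10, limma adjusted p = 4.33e-05, exact permutation p = 0.00216), a difference of 1.66-fold.

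*Adm* (ENSMUSG00000030790, chromosome 7, 110627661 to 110629820, + strand) encodes adrenomedullin, a vasodilator peptide. It spanned 224 to 451 normalized counts across the CTL group (median 343) and 352 to 1404 across the knockdown group (median 1031). Knockdown replicate 1 lay inside the CTL range, and the other 5 knockdown tumors, from 684 upward, lay above it. *Adm* rose by 1.40 on the log2 scale (SE 0.30, limma adjusted p = 0.00177, exact permutation p = 0.00866) and 1.65 without that tumor. *Adm* varied most among knockdown tumors, with a coefficient of variation of 39.5%.

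Among 11 related ligands and receptors of the VEGF and adrenomedullin pathways, 2 rose (18.2%, against 21.1% of all genes) and 3 fell (27.3%, against 20.7%), and *Flt4* also fell without knockdown replicate 1 (-0.55, limma adjusted p = 0.0250). The receptors *Flt1* and *Kdr* rose modestly, with log2 fold changes of 0.42 (limma adjusted p = 0.00421) and 0.47 (limma adjusted p = 0.00932). The ligands *Vegfb* (-0.44) and *Vegfc* (-0.94) fell on the log2 scale, opposite to *Vegfa*. The co-receptor *Nrp1* fell most, from 3460.3 ± 239 to 1537 ± 184 normalized counts without overlap (log2 fold change -1.18, SE 0.08, limma adjusted p = 1.07e-07). *Vegfb* lies on chromosome 19, whose median gene differed by -0.36 between the groups, and after chromosome medians were removed its difference was -0.09, whereas those of *Vegfc* and *Nrp1* on chromosome 8 were -0.74 and -0.98. *Flt1*, *Kdr*, *Flt4*, *Vegfb* and *Vegfc* were named after their values were seen. Of 10 endothelial markers 7 rose (against 21.1% of all genes), with a median log2 fold change of 0.46. Without knockdown replicate 1 the count was 6, as *Eng* lost its call (limma adjusted p = 0.0763). The summed levels were 4033 to 4841 in CTL tumors, 7650.2 in knockdown replicate 1 and 4864 to 6707 in the other knockdown tumors. In bulk tumors, more cells of a type and more RNA per cell cannot be told apart.

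*Car9* (ENSMUSG00000028463, chromosome 4, 43506966 to 43513729, + strand) encodes carbonic anhydrase IX, a membrane enzyme that helps export acid. It spanned 2186 to 3673 normalized counts across the CTL group (median 2749) and 3641 to 9292 across the knockdown group (median 8034). Only knockdown replicate 1 fell below the highest CTL tumor, and by a small margin. This made a rise of 1.37 on the log2 scale (SE 0.21, limma adjusted p = 0.000121, exact permutation p = 0.00433) and 1.56 without that tumor. An antisense gene, *Gm12454*, shares 214 of the 2304 exon bases of *Car9*. Reads in that stretch could not be told apart without a known counting strand.

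Glycolysis is the other metabolic arm of the response. In a list of 28 further hypoxia-induced genes, all 7 that act in glucose uptake and glycolysis rose (against 21.1% of all genes), with log2 fold changes from 0.53 (*Ldha*) to 1.16 (*Pfkfb3*). For 4 of the 7, *Hk2*, *Pfkfb3*, *Pfkfb4* and *Pdk1*, the groups did not overlap (against 10.6% of all genes), and *Hk2*, which commits glucose to the pathway, stood at 3488 ± 474 normalized counts for CTL and 7219 ± 1162 for *Filip1l* KD (SD, n = 6). The mitochondrial gatekeeper *Pdk1* rose by 0.96 and the glucose transporter *Slc2a1* by 0.99 on the log2 scale, *Slc2a1* being at 6961 normalized counts in knockdown replicate 1, inside the CTL range of 5548 to 8414. This grouping by role was made after the values were seen.

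*Ndrg1* (ENSMUSG00000005125, chromosome 15, 66929318 to 66969640, - strand), a stress-induced cytoplasmic protein whose mRNA is a widely used hypoxia marker, spanned 7583 to 13502 normalized counts across the CTL group (median 9852). Across the knockdown group it spanned 16409.6 to 42097 (median 37070.3). The groups did not overlap, with replicate 1 lowest and the other 5 knockdown tumors at 28430.2 or more. *Ndrg1* rose by 1.64 on the log2 scale, or 3.13-fold (SE 0.21, limma adjusted p = 2.80e-05, exact permutation p = 0.00216), the largest of the 10 members. The non-coding genes *Gm17035* and *Gm2895* on the opposite strand share exon sequence with it.

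*Bnip3* (ENSMUSG00000078566, chromosome 7, 138890836 to 138909519, - strand), a mitochondrial protein that promotes mitophagy, spanned 2488 to 4639.6 normalized counts across the CTL group (median 3157). Across the knockdown group it spanned 3984 to 7138 (median 6743). Again the overlap came from knockdown replicate 1 alone. *Bnip3* rose by 0.84 on the log2 scale (SE 0.18, limma adjusted p = 0.00188, exact permutation p = 0.00866), and its relative *Bnip3l*, which was higher in every knockdown tumor and is named after its values were seen, rose by 0.71. *Bnip3l* lies on chromosome 14, whose median gene differed by 0.38, and its difference was 0.33 after chromosome medians were removed. An antisense gene, *Gm45507*, shares exon sequence with *Bnip3*.

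*Ankrd37* (ENSMUSG00000050914, chromosome 8, 45996902 to 46005707, - strand), a small ankyrin-repeat protein, was expressed at low levels of 207 to 558 normalized counts across the CTL group (median 371). Across the knockdown group it spanned 380.2 to 839 (median 649), lowest in replicate 1, and 4 of the 6 exceeded every CTL tumor. *Ankrd37* rose by 0.77 on the log2 scale (SE 0.23, limma adjusted p = 0.0172, exact permutation p = 0.0152). This was the least secure of the 8 calls, since it was 0.50 once trends with GC content and length were taken out (limma adjusted p = 0.0672). *Ankrd37* also overlaps *Lrp2bp* and *Ufsp2* on the opposite strand.

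*Ddit4* (ENSMUSG00000020108, chromosome 10, 59949669 to 59951834, - strand) encodes REDD1, an inhibitor of mTORC1 that is induced by hypoxia, by the integrated stress response and by glucocorticoids. It spanned 4261 to 7396 normalized counts across the CTL group (median 5319) and 6194 to 10187 across the knockdown group (median 8601). CTL replicate 3 was the highest CTL tumor, and knockdown replicate 1 was the only knockdown tumor below it. *Ddit4* rose by 0.63 on the log2 scale (SE 0.14, limma adjusted p = 0.00254, exact permutation p = 0.00433). Of 8 integrated stress response genes 5 rose (62.5%, against 21.1% of all genes), led by *Atf3* (log2 fold change 1.19) and followed by *Ddit3* (0.68), *Asns* (0.57), *Trib3* (0.45) and *Atf4* (0.21). Without knockdown replicate 1 *Trib3* lost its call (limma adjusted p = 0.0522) and *Sesn2* gained one (limma adjusted p = 0.0191), so that the count stayed at 5. *Psat1* on chromosome 19 fell (-0.29, a share of 12.5% against 20.7% of all genes) but was at 0.06 after chromosome medians were removed. Of 6 glucocorticoid-induced genes *Klf9* (-0.84) and *Tsc22d3* (-0.56) fell (33.3%, against 20.7% of all genes), *Klf9* on chromosome 19 being at -0.48 after chromosome medians were removed, and *Zbtb16* (0.87) did not pass the test. *Sgk1* also fell without knockdown replicate 1 (-0.72, limma adjusted p = 0.000411). Their part in the level of *Ddit4* was not tested.

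*P4ha1* (ENSMUSG00000019916, chromosome 10, 59323296 to 59373304, + strand) encodes a catalytic subunit of collagen prolyl 4-hydroxylase. It spanned 4219.9 to 5335 normalized counts across the CTL group (median 4626) and 4038 to 5883 across the knockdown group (median 5104), where replicate 1 had 4148. The groups overlapped throughout, with a log2 fold change of 0.06 (SE 0.09, 95% interval -0.14 to 0.27, limma adjusted p = 0.636, exact permutation p = 0.543). Of 4 other collagen-modifying enzymes among the 28 hypoxia-induced genes, *P4ha2* rose by 0.44, and *Plod2* (0.15), *Plod1* (-0.13) and *Lox* (0.18) did not pass the test, all as log2 fold changes. These enzymes were grouped after their values were seen. Beside them, 2 of 7 fibroblast markers (28.6%, against 20.7% of all genes), the collagen genes *Col1a1* and *Col1a2*, fell by 0.76 and 0.97 on the log2 scale. Without knockdown replicate 1 all but *Dcn* fell, 6 of 7, and in that fit 6931 of 15680 genes were called in either direction. The summed level of the 7 was 160012 to 260347 in CTL tumors, 252720 in knockdown replicate 1 and 74885 to 157962 in the other knockdown tumors. The part of fibroblasts in the level of *P4ha1* was not tested.

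Over the whole list of 28 further hypoxia-induced genes, 20 rose (against 21.1% of all genes), 7 of them past a log2 fold change of 1 (against 6.20% of all genes), and 10 without overlap between the groups (against 10.6% of all genes). The median log2 fold change was 0.68. The largest were *Ero1a*, an oxidase of protein folding (2.53), *Stc2*, a secreted glycoprotein (1.57), *Ak4*, a mitochondrial adenylate kinase (1.40), and *Pgf*, a ligand of the VEGF family (1.28). *Ero1a* rose from 3486 ± 772 to 20512 ± 5798 normalized counts and lies on chromosome 14, whose median gene differed by 0.38, so that its difference was 2.15 after chromosome medians were removed. *Pgf* was as low in knockdown replicate 1 (309 normalized counts) as in CTL tumors (258 to 393). In limma, 0 of the 28 fell at an adjusted p under 0.05 and 2, *Mxi1* and *Plod1*, at an unadjusted p under 0.05, while edgeR and DESeq2 each called 1. *Mxi1* lies on chromosome 19, and its -0.18 became 0.18 after chromosome medians were removed.

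**Figure D2:**
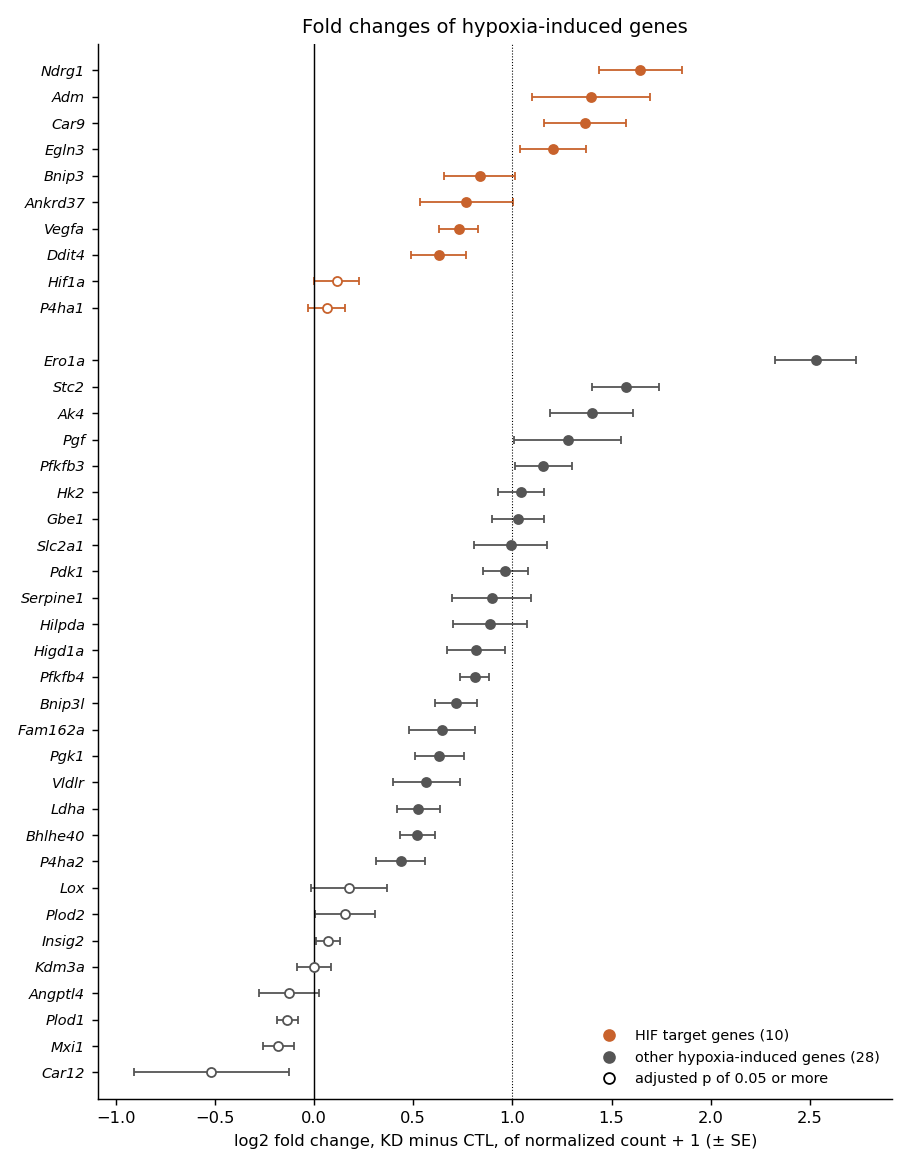
Log2 fold changes (x axis, *Filip1l* KD minus CTL, ± SE, 6 tumors a group) of the 10 members in orange and of 28 other hypoxia-induced genes in grey; open points have an adjusted p of 0.05 or more and the dotted line marks a log2 fold change of 1. Of the members 8 and of the other genes 20 are filled, all to the right of 0.

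Levels of different members can be compared only per length, as normalized counts per kb of exon. In CTL tumors *Ddit4* stood highest at 3112 ± 678 per kb, above *Egln3* at 1849 ± 323 with no overlap. *Ndrg1*, *Bnip3*, *Car9*, *P4ha1*, *Vegfa* and *Hif1a* followed down to 879 ± 104, and no neighbours among them, nor *Egln3* and *Ndrg1*, were separated. *Ankrd37* (235 ± 77.5) and *Adm* (211 ± 63.6) were lower than *Hif1a* in every CTL tumor and overlapped each other. In *Filip1l*-knockdown tumors *Ndrg1* was first at 5102 ± 1474 per kb, and it overlapped *Ddit4* at 4774 ± 786 and *Egln3* at 4334 ± 1111. The only neighbours separated there were *Bnip3* (2699.7 ± 562) and *Vegfa* (1469 ± 163). All values are means ± SD with n = 6.

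**Figure D3:**
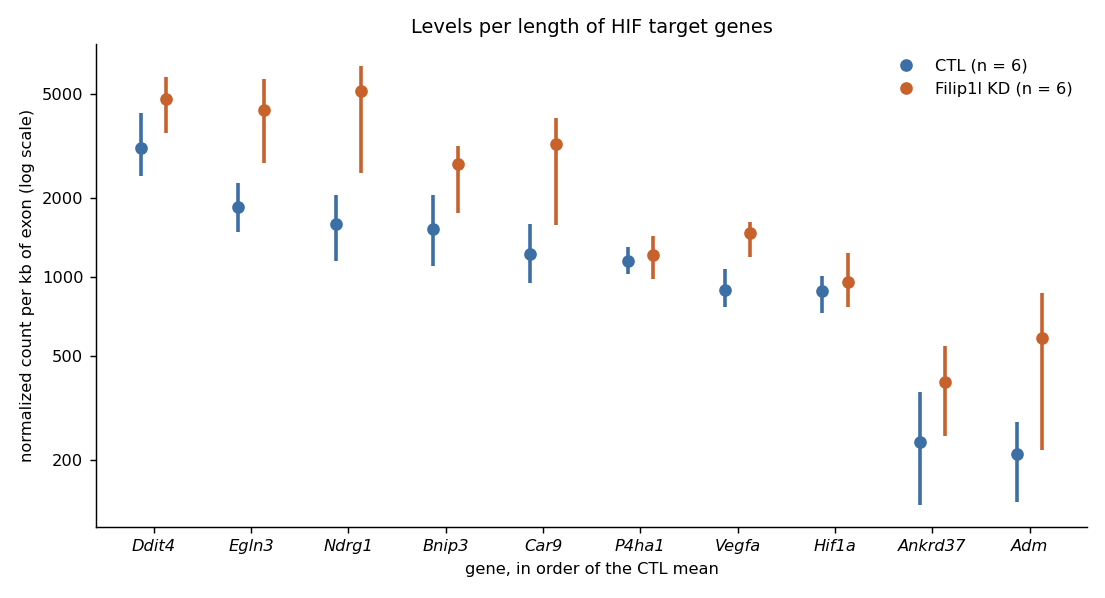
Level of each member per kb of exon (y axis, log scale) in CTL and Filip1l KD tumors, in the order of the CTL means; points are means and lines run from the lowest to the highest of 6 tumors. *Ndrg1* stood behind *Ddit4* and *Egln3* in CTL tumors and ahead of both in knockdown tumors.

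The rise was uneven among tumors. As the median over the 8 raised members of the log2 difference from the CTL mean, the CTL tumors ranged from -0.31 in replicate 2 to 0.34 in replicate 3. Knockdown replicate 1 reached 0.33, inside that range, replicate 4 reached 0.83 and the other 4 knockdown tumors 1.13 to 1.46. Knockdown replicate 1 was inside the CTL range for 5 of the 8, *Car9*, *Bnip3*, *Ankrd37*, *Adm* and *Ddit4*. Without it, 7 members were separated between the groups and the same 8 were called. In that fit 6931 of 15680 genes were called in either direction, 50.6% of them higher. As replicate 1 was the lowest knockdown tumor for these 8 members, leaving it out could only keep or raise the number separated. The share of all genes separated without it was not computed.

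Cell type markers also differed among tumors, but not every list set knockdown replicate 1 apart from the other knockdown tumors. The 6 tumor epithelium markers had summed levels of 135463 to 176172 in CTL tumors, 189996 in knockdown replicate 1 and 261184 to 354598 in the other knockdown tumors. Of the 6, 5 rose (against 21.1% of all genes), with a median log2 fold change of 1.29. Within the list *Cldn7* rose by 2.31 and *Krt19* by 1.65, whereas *Cdh1*, the adhesion protein of epithelia, had a log2 fold change of 0.01. Of 7 macrophage markers *Cd68* and *Cd163* rose (*Cd163* alone without knockdown replicate 1), a share of 28.6%, near the 21.1% of all genes. Their list had summed levels of 12562 to 17103 in CTL tumors and 11095 to 16428 in knockdown tumors apart from replicate 1, which had 20453. Of 6 neutrophil markers all but *Mmp9*, which macrophages and tumor cells also express, rose (against 21.1% of all genes). The sums of these 5 were 278 to 352 in CTL tumors, 1079 in knockdown replicate 1 and 742 to 1153 in the other knockdown tumors. *Mmp9* had a log2 fold change of -0.66, and without knockdown replicate 1 it fell (-0.96, limma adjusted p = 0.00265).

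Red blood cell markers (4 of 5 higher, all but *Alas2*) summed to 203 to 599 normalized counts in the CTL group and 774 to 1585 in the knockdown group. Skeletal muscle markers (7 of 8 higher, 4 of 8 without knockdown replicate 1) summed to 2257 to 12054 and 5044 to 87476, adipocyte markers (2 of 4 measured higher, *Fabp4* and *Cidec*) to 194 to 471 and 453 to 907, and lung epithelium markers (2 of 4 measured higher, *Sftpb* and *Napsa*) to 185 to 339.9 and 285 to 1399. All of these counts are to be read against the 21.1% of all genes that were higher over all tumors. The adipocyte markers *Plin1* and *Lep* and the lung markers *Sftpa1* and *Scgb1a1* were not listed in the table. The part of these cell types in the levels of the members was not tested.

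**Figure D4:**
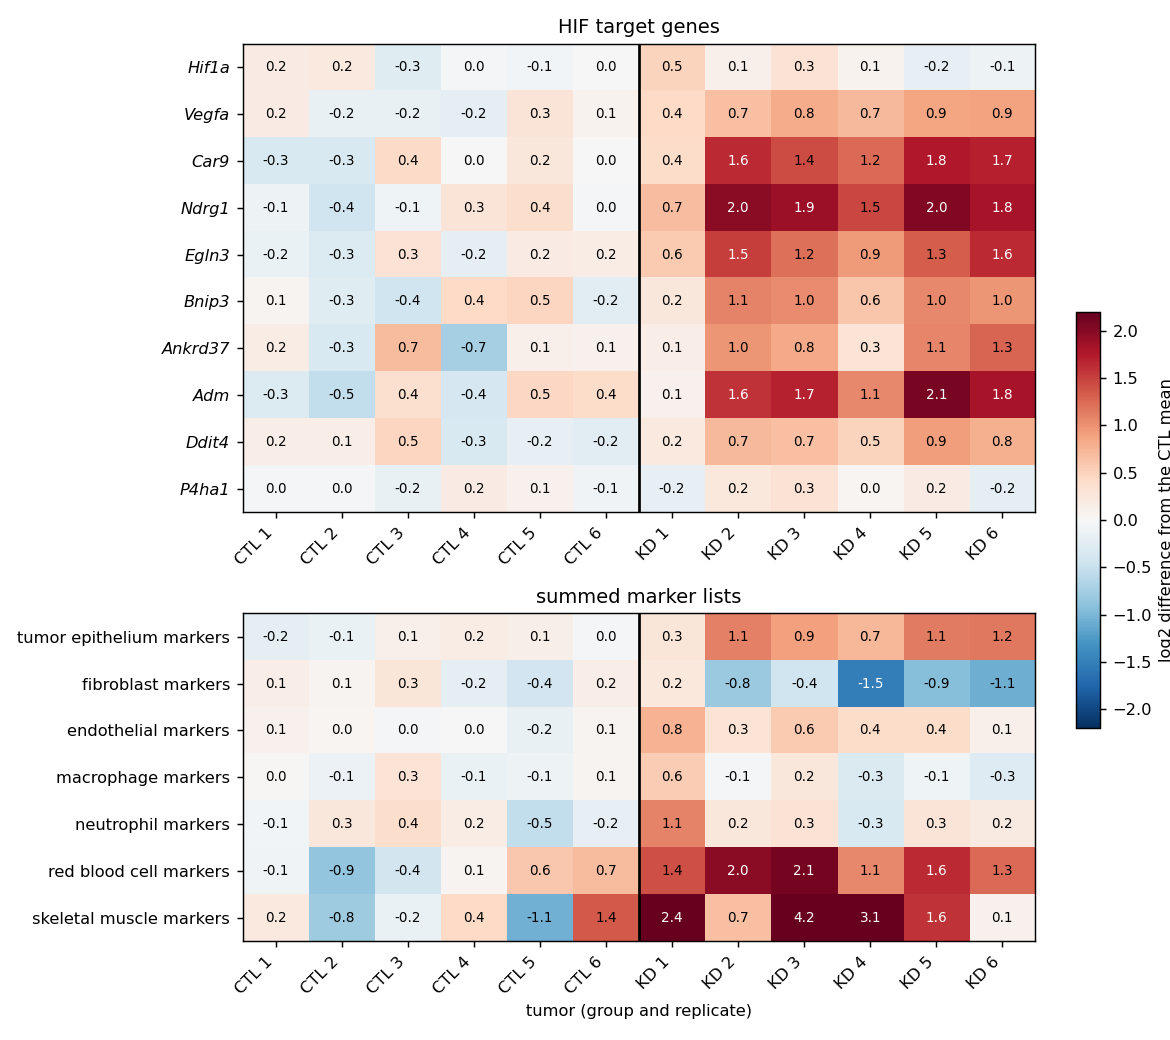
Log2 difference from the CTL mean for each member (upper block) and for the summed marker lists (lower block) in each of the 12 tumors, printed in each cell; colours saturate at the ends of the scale. Knockdown replicate 1 is pale for the raised members and for tumor epithelium markers, and it is the knockdown tumor with the highest fibroblast, endothelial and macrophage sums. The neutrophil sum includes *Mmp9*.

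Each member was also set against the mean log2 level of the 6 tumor epithelium markers within each tumor, with exact two-sided permutation tests chosen after the values were seen and adjusted over the 10 members. This mean differed by 1.16 between the groups, and its genes differed among themselves, so the ratio does not measure the share of tumor cells. On this scale *Ndrg1* was higher in *Filip1l*-knockdown tumors (0.48, exact adjusted p = 0.0303, above all CTL tumors in 5 of 6). *Hif1a*, *Vegfa*, *Ddit4* and *P4ha1* were lower, with log2 differences of -1.05, -0.43, -0.53 and -1.10 (exact adjusted p from 0.0108 to 0.0162). A gene whose normalized counts did not differ between the groups would be lower by 1.16 on this scale. The lower values of *Hif1a* and *P4ha1* thus restate their small fold changes beside a higher reference. Shares of all genes on this scale were not computed. *Car9* (0.20), *Egln3* (0.04), *Adm* (0.23), *Bnip3* (-0.33) and *Ankrd37* (-0.40) were not past the threshold in either direction.

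Whether members were high in the same tumors was examined within each group, so that the group difference did not enter. In CTL tumors the median Pearson r over the 45 pairs of members was 0.10, and in *Filip1l*-knockdown tumors it was 0.87. Among the 28 pairs of the 8 raised members the medians were 0.32 and 0.90. Without knockdown replicate 1 the knockdown medians were 0.61 and 0.79 over 5 tumors, and the difference between the groups was not tested. With exact permutation of the 720 orderings, 26 knockdown pairs and 6 CTL pairs had an unadjusted p under 0.05, and 0 of the 90 pairs were past 0.05 after Benjamini-Hochberg adjustment (lowest exact adjusted p = 0.0625). All points of a pair share their libraries and scaling factors. The same medians and counts were not computed for pairs of other genes, so whether they are particular to the members was not tested.

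*Car9* and *Ddit4* gave the lowest p among knockdown tumors, with r = 0.96 (exact p = 0.00139, adjusted p = 0.0625) and rho = 1.00 (exact p = 0.00278, adjusted p = 0.214), and r = 0.81 without the 2 tumors farthest from the median. *Hif1a* ran opposite to the raised members in knockdown tumors, with r from -0.62 against *Bnip3* to -0.85 against *Ddit4*. The latter (exact p = 0.0278, adjusted p = 0.0926, rho = -0.83 with exact p = 0.0583) was -0.31 without the 2 farthest tumors. *Hif1a* then had r of 0.24 with *Bnip3*, 0.22 with *Ndrg1* and -0.06 with *Adm*. With *Egln3*, *Car9*, *Ankrd37* and *Vegfa* r was then -0.48, -0.47, -0.36 and -0.25. The relation was thus weaker for every raised member without the farthest tumors, and it stayed negative for all but *Bnip3* and *Ndrg1*. In CTL tumors *Hif1a* and *Car9* had r = -0.96 (exact p = 0.00556, adjusted p = 0.0625) and rho = -0.89 (exact p = 0.0333, adjusted p = 0.239), and r = -0.90 without the 2 farthest tumors. *P4ha1* and *Bnip3* had r = 0.93 in CTL tumors (exact p = 0.00972, adjusted p = 0.0795, rho = 0.89 with exact p = 0.0333), with r = 0.75 without the 2 farthest tumors. Among knockdown tumors *P4ha1* and *Bnip3* had r = 0.62 (exact p = 0.171, rho = 0.66 with exact p = 0.175).

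**Figure D5:**
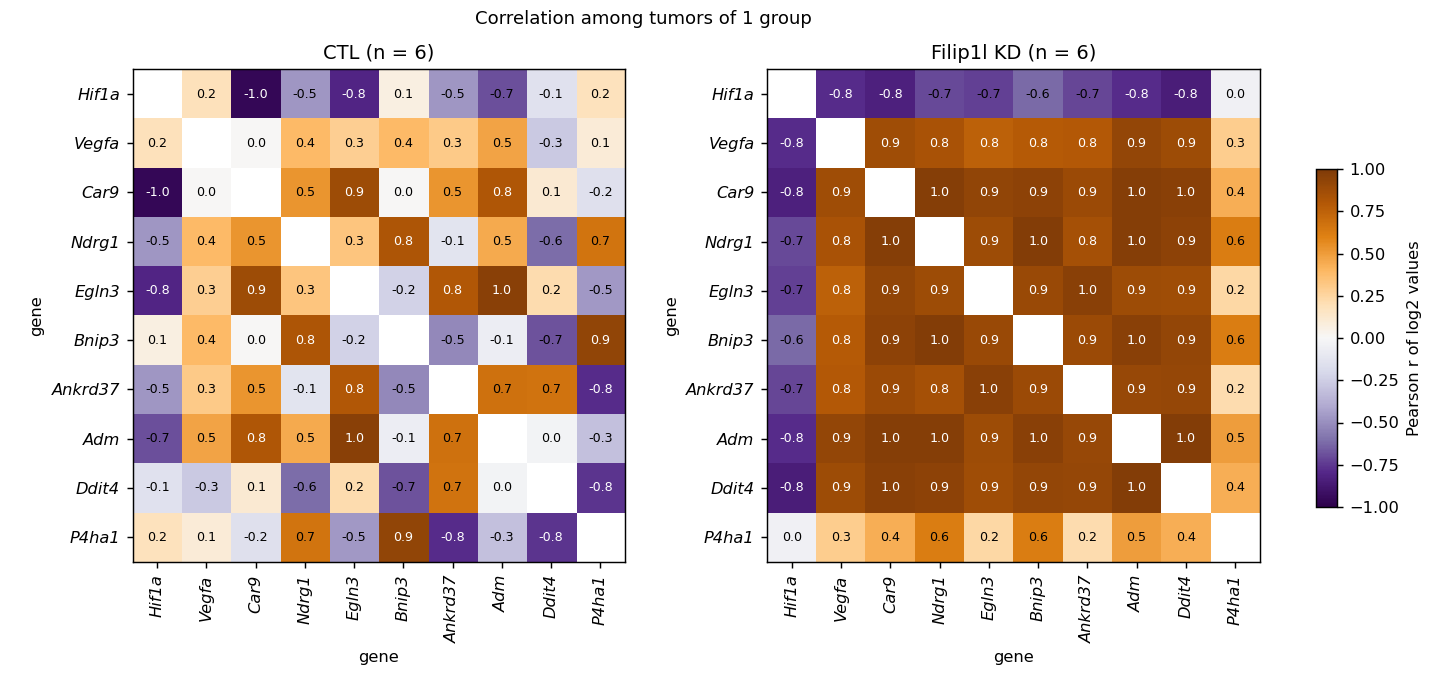
Pearson r of log2 values for each pair of members among the 6 CTL tumors (left) and the 6 Filip1l KD tumors (right), printed in each cell. The right panel is dark orange among the 8 raised members, with a median of 0.90, and the left panel is mixed, with a median of 0.32.

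The genes outside the members whose values followed 3 of them most closely, over 12 tumors with the group means removed and among all 15687 genes, are given as a description. For *Vegfa* they were *Atp6v0a1*, a subunit of the proton pump (r = 0.89), *Tmem139* (0.89) and *Sema4g* (0.86). For *Egln3* they were *Sprr2a3* (0.96), *S100b* (0.94) and *Pllp* (0.94). For *Ndrg1* they were *Anxa10* (0.97), the glycolytic enzyme *Aldoa* (0.97) and *F3*, the gene of tissue factor (0.97). *Aldoa* was 0.63 higher in *Filip1l*-knockdown tumors on the log2 scale (limma adjusted p = 0.00167), and *F3* followed *Ndrg1* among tumors with a log2 fold change of -0.05.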

How the data were processed

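Tumor RNA was poly(A) selected and sequenced by the authors. According to the paper and the submitters' processing notes, they used Trimmomatic 0.36 for trimming, STAR 2.5.2b for alignment to mm10 and featureCounts of Subread 1.5.2 for counting. The deposited values are these counts divided by each tumor's DESeq2 size factor, a normalized signal without length correction. Steps in the values gave whole reads for 100% of values (tolerance 0.01) and hence the depths, and floors or intervals on reads would cover counting error only. Groups follow the labels, and separate animals are not stated tumor by tumor, so p-values measure the spread between these tumors.

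Values were analysed as log2(normalized count + 1) by limma 3.58.1 (R 4.3.3), using a variance trend and Benjamini-Hochberg adjustment over 15687 genes. The filter at a mean of 5 removed 0 genes. Fold changes are on this scale. Called means an adjusted p under 0.05. edgeR 4.0.16 and DESeq2 1.42.0 were run on the recovered reads and called 6626 and 6960 genes, against 6566. Gene positions and lengths came from GENCODE vM21 on GRCm38, promoters from RefSeq. Steps were tested on simulated data.

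The members and lists were chosen with earlier results of these data known. All members are named. From pathway lists, genes past both thresholds are named (at most 4 a direction, or the 2 with the largest change), from marker lists those a result turns on, and for 3 members the 3 genes most alike. Exceptions are stated or are the genes behind small counts, named after their values were seen. Same-numbered tumors had correlations of deviations from -0.269 to 0.0990, so numbers were not taken to pair tumors.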

Additional observations from a re-analysis of the deposited data

Results flagged for a closer look

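*Atf3*, an integrated stress response gene, had 522 normalized counts in CTL replicate 4, far above the 293 to 378 of the other CTL tumors, by Dixon's criterion for 6 values. It was the only such value among 40 groups tested (20 genes in each group), where chance alone is expected to mark about 1 in 20. All 6 *Filip1l*-knockdown tumors, from 653 upward, were higher than this tumor.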

How the results depend on the processing

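The alternatives were 13 other settings over all 12 tumors and 12 fits that each left out 1 tumor. Of the 250 resulting member fits, 249 kept their direction and their side of the threshold, 0 reversed, and *Ankrd37* lost its call with GC content and length trends removed, which left 7 members called. The setting without a filter repeated the main fit, since the filter removed 0 genes. A filter at a mean of 20, limma without a trend and the replicate block could change p-values but not fold changes. The replicate block called 5905 of all genes and the same 8 members. *Rpl7* scaling called 4835 of all 15687 genes higher and 1216 lower. It put 5 members past both thresholds, against 1683 of all genes in either direction, and gave 6 higher and 1 lower HIF regulators. Removing chromosome medians also left 1 regulator lower. Of the 28 further hypoxia-induced genes, 1 was lower at the same 75th percentile, with chromosome medians removed, with GC content and length trends removed, in edgeR and in DESeq2, 2 were lower at the same total, and 0 to 1 when 1 tumor was left out. Total scaling gave 44.5% and GC content and length removal 42.4% higher among called genes, against 50.5%. The median r among CTL tumors was -0.013 without CTL replicate 5 and otherwise up to 0.185, and among knockdown tumors it was 0.61 without replicate 1 and otherwise up to 0.90. The causes were not tested. With 6 tumors a group, differences as small as those of *Hif1a* and *P4ha1* did not pass the test.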
